A study of Rattus norvegicus with 6 samples.

Results

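The genes described here are 32 genes of protein folding in the endoplasmic reticulum (ER) and of the unfolded protein response, taken by symbol from a table of 22601 rat genes. All 32 were found, each in 1 row. The samples were 6 RNA-seq libraries of RBL-2H3, a rat basophilic leukemia line labelled wild type that serves as a model of mast cells and carries the IgE receptor. The 3 control libraries are labelled only as control, and the 3 others came from cells given PIO, the PPARγ agonist named by the series, at 10 µM for 6 h. No vehicle or time is given for the controls, and all samples are of this 1 line, so a difference in vehicle or time cannot be told apart from PIO. The labels name no separate cultures, so the replicates may be technical, and a p-value here speaks of the spread among these 6 libraries alone.

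Secreted and membrane proteins enter the ER through a translocon, fold there with chaperones and disulfide enzymes, and are passed to the proteasome by ER-associated degradation when folding fails. The unfolded protein response adjusts these parts to the load. Its sensors sit in the ER membrane: Ern1 encodes IRE1, which splices Xbp1 mRNA, Eif2ak3 encodes PERK, which slows translation and favours the translation of ATF4, and Atf6 encodes a transcription factor that is freed by cleavage. Mast cells make granule proteins and receptors through this route.

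Library totals, inferred from the deposited values, ran from 14048202 to 15084729 reads. The values are FPKM, fragments scaled to gene length and to the reads of the library. Each of the 32 genes had between 276 and 48804 reads in every library, so none was lost to the filter on low values, a mean of at least 0.5 FPKM. Genes of mast cells and basophils marked the line (10 of 11 tested, summed 2999 to 3146 FPKM in control and 3031 to 3098 FPKM after PIO). Only the tryptase gene Tpsab1 among them was listed at 0. Macrophage genes summed to 1.68 to 2.07 FPKM over the 6 libraries and lymphocyte genes to 0.844 to 1.58 FPKM, while fibroblast genes summed to 4.69 to 5.61 FPKM, nearly all of it Col3a1. Cpt1a, a known PPAR target, stood at 5.76 to 6.49 FPKM in control and at 12.3 to 12.7 FPKM after PIO. Hmox1, the gene of heme oxygenase 1, stood at 154 to 157 FPKM and at 189 to 198 FPKM. Control replicate 3 stood apart from the other 5 libraries in part of the genes, so results that rest on it are given with and without it.

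The 32 genes spanned mean levels from 3.98 FPKM for Derl3 to 1738 FPKM for Calr, with a median of 79.9 FPKM. Chaperones and disulfide enzymes were the abundant roles. Calr (calreticulin), P4hb (protein disulfide isomerase), Hsp90b1 (the ER Hsp90) and Hspa5 (BiP, the ER Hsp70) ranked 1 to 4 by FPKM. The sensor genes Atf6, Ern1 and Eif2ak3 ranked 20, 26 and 27, while Xbp1 ranked 10. Together the 32 genes held 1.56% ± 0.031 of all FPKM in control and 1.57% ± 0.015 with PIO (SD, n = 3).

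**Figure D1:**
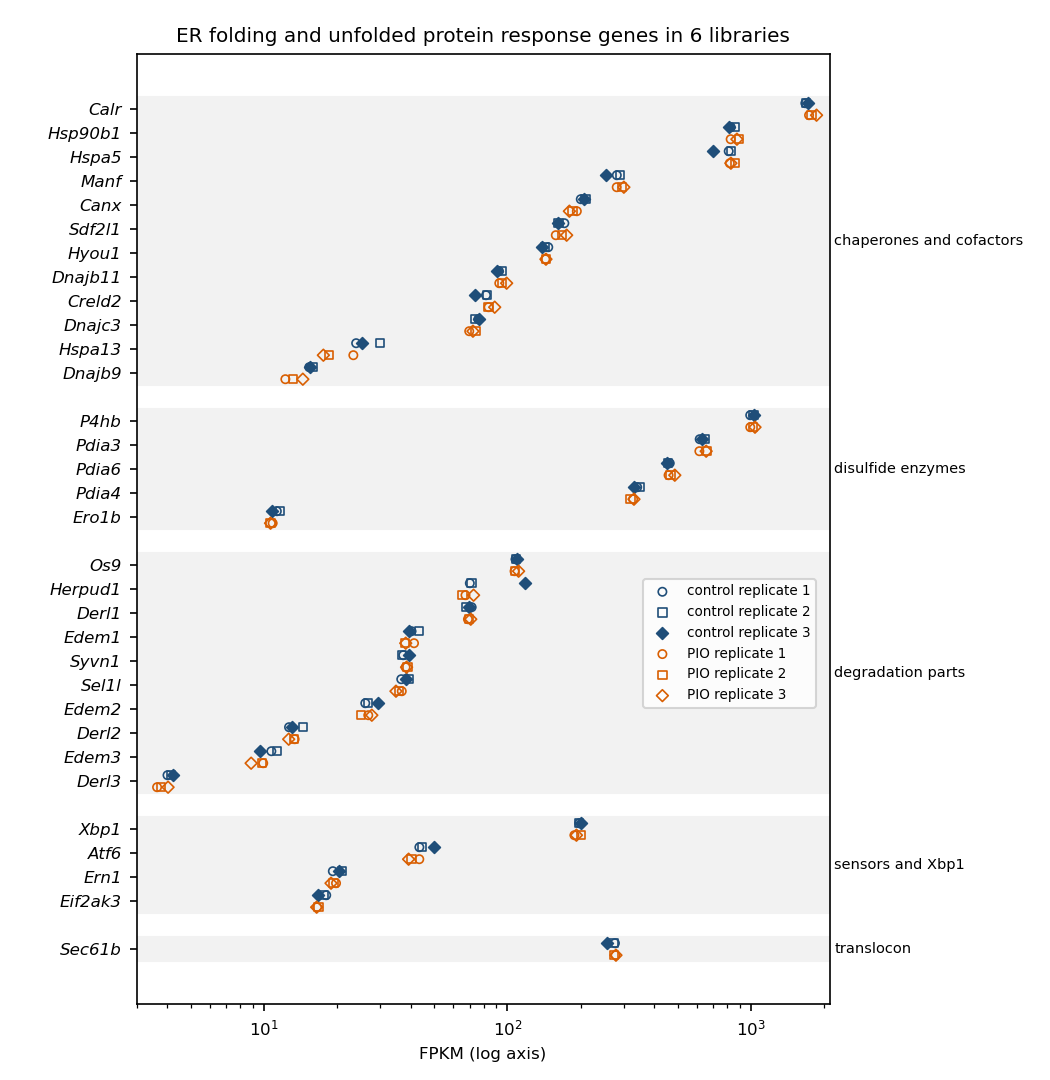
FPKM of the 32 genes in each of the 6 libraries (log axis), grouped by role; blue symbols are control, orange symbols PIO, and the filled diamond is control replicate 3. Levels run from 3.98 FPKM for Derl3 to 1738 FPKM for Calr, and the symbols of most genes lie close together, with Herpud1 in control replicate 3 (118 FPKM) away from its other 5 values.

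Promoters are shown for the response elements known in genes of this pathway, in full for Hspa5 and Herpud1, which were chosen after their values were seen. RefSeq windows of the rat assembly GRCr8, from 250 bases before to 50 after the start site, were at hand for 25 of the 32 genes, that is all but Manf, Pdia3, Pdia6, Os9, Derl1, Ern1 and Atf6. The ER stress response element was searched as CCAAT and CCACG with 9 bases of any kind between them, and its second form as ATTGG and CCACG with 1 base between them, both on both strands. The first form was in 9 windows (Hspa5, Hsp90b1, Dnajc3, Calr, Canx, Creld2, Ero1b, Derl3 and Xbp1), against 22 of all 33469 windows (0.0657%). The second form was in 3 (Hyou1, Dnajb11 and Herpud1), against 17 of all windows (0.0508%). Several of these genes are textbook examples of the element, so the count is a description. Examples follow, read in the direction of the motif with its fixed letters in capitals.
Hspa5, first form: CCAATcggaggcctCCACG
Calr, first form: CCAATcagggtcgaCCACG
Canx, first form: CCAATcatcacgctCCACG
Xbp1, first form: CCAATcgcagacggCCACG
Herpud1, second form: ATTGGgCCACG
Hyou1, second form: ATTGGcCCACG

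The core of the unfolded protein response element, TGACGTG on either strand, was in the windows of Hspa5 and Hyou1, against 1.81% of all windows, and the one in Hyou1 overlaps its element of the second form. The C/EBP-ATF site TTGCATCA, to which ATF4 is known to bind with C/EBP partners, was searched on both strands. It was in the window of 1 of the 25 genes, Herpud1, against 0.795% of all windows. A match is a match of letters and not evidence of binding. The 250 bases before the start site are given for both genes, 5′ to 3′ on the gene's strand, with matches in capitals.
Hspa5 (GRCr8 chr3:38452766-38453015, plus strand): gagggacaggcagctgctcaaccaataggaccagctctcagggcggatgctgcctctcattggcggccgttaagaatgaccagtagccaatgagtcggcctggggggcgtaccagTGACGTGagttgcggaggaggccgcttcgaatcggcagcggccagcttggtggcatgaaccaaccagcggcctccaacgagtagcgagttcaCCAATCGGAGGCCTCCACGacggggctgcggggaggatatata
Herpud1 (GRCr8 chr19:10614708-10614957, minus strand): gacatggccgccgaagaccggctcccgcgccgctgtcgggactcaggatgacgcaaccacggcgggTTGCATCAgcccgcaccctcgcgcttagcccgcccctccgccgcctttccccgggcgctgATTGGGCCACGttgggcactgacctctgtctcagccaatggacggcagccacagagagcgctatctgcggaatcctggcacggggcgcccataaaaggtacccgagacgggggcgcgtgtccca
The capitals mark the first form and the core of the unfolded protein response element in Hspa5, and the second form and the C/EBP-ATF site in Herpud1. The elements were not tested against the values of the genes.

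With PIO, no gene of the 32 changed past the threshold. In the limma fit over 10410 genes, 4 genes (0.0384%) were called and all 4 were higher, none of them among the 32 (4 higher and 1 lower under TPM scaling, 2 and 2 without control replicate 3). Limma-voom on the recovered reads called 6 higher and 1 lower, and none of the 32 either. The adjusted p of the 32 genes ran from 0.304 to 0.99. At an unadjusted p under 0.05 limma singled out 4 of the 32 (Hspa13, Dnajb9, Canx and Atf6), which is 12.5%, the same as the 12.5% over all genes. All 4 were lower with PIO, against 6.15% of all genes on that side and 6.36% on the other. The match of the 2 shares belongs to this setting. At the same cut the count was 7 of the 32 under TPM scaling (1223 of 10410 genes) and with sample weights (1608). It was 6 with limma-voom (1385) and 3 without a variance trend (1217). The estimates were narrow: the 95% interval lay within 1.2-fold in either direction for 26 of the 32 genes, and reached past it for Hspa13, Dnajb9, Herpud1, Edem3, Derl3 and Atf6. In bulk libraries fewer cells that express a gene and less RNA per cell cannot be told apart.

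Among the 12 chaperones and cofactors, 8 had a log2 fold change above 0 and 4 below, against 54% of all genes above 0. The median was 0.032, beside 0.0094 over all genes tested, and under quantile normalization it was -0.0021, with 5 of 12 above 0. Hspa13 encodes an Hsp70-like protein of microsomes. Its values were 23.9, 30.0 and 25.3 FPKM in the controls and 23.3, 18.6 and 17.6 FPKM after PIO (here and below in the order of replicates 1, 2 and 3). Every PIO value was below every control value, although PIO replicate 1 lay just under control replicate 1. The means were 26.4 ± 3.2 and 19.8 ± 3.07 FPKM (SD, n = 3), and the log2 fold change of -0.41 (SE 0.12) did not pass (limma adjusted p = 0.304).

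Dnajb9 encodes a J-domain cochaperone of BiP that also restrains IRE1. It stood at 15.4, 15.9 and 15.4 FPKM in control and at 12.3, 13.2 and 14.5 FPKM after PIO. The groups did not overlap, and the control values were the closer set. The log2 fold change was -0.22 (SE 0.06, limma adjusted p = 0.304), and it was -0.23 without control replicate 3. Canx encodes calnexin, the membrane-bound lectin chaperone that holds newly made glycoproteins. It stood at 200.03, 209 and 205 FPKM in control and at 193, 185 and 179.6 FPKM after PIO. All 3 PIO libraries were below all 3 controls, and the log2 fold change was -0.14 (SE 0.04, limma adjusted p = 0.304).

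Calreticulin, the soluble counterpart of calnexin, lay on the other side. Calr was at 1671, 1678 and 1718 FPKM in control and at 1731, 1772 and 1858 FPKM after PIO, again with no overlap. Its log2 fold change was 0.08 (SE 0.04, limma adjusted p = 0.416). Creld2, which encodes an ER protein induced by ER stress, was at 81.7, 82.4 and 73.8 FPKM in control and 83.7, 83.6 and 88.6 FPKM after PIO. Its groups did not overlap either, with 0.11 (SE 0.05, limma adjusted p = 0.432), and the value was 0.056 without control replicate 3. Dnajc3, a further BiP cochaperone, was at 75.9, 74.0 and 76.1 FPKM in control and 69.7, 73.9 and 72.2 FPKM after PIO (-0.07, limma adjusted p = 0.472).

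Hspa5, the central chaperone and the usual readout of the response, was at 809.9, 829 and 701 FPKM in control and at 818, 861 and 827 FPKM after PIO. The low library was control replicate 3, and the other 5 lay between 809.9 and 861 FPKM. The log2 fold change was 0.10 (SE 0.06, limma adjusted p = 0.515) and 0.027 without control replicate 3. Manf, which encodes a secreted BiP partner, showed the same low library, with 281, 289 and 254 FPKM in control and 281, 295 and 301 FPKM after PIO. Its log2 fold change of 0.09 became 0.034 without that library. For the other 4 chaperone genes, Hsp90b1, Hyou1 (an exchange factor of BiP), Dnajb11 and its partner Sdf2l1, the log2 fold changes lay between 0.0075 and 0.056 (limma adjusted p between 0.576 and 0.941).

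**Figure D2:**
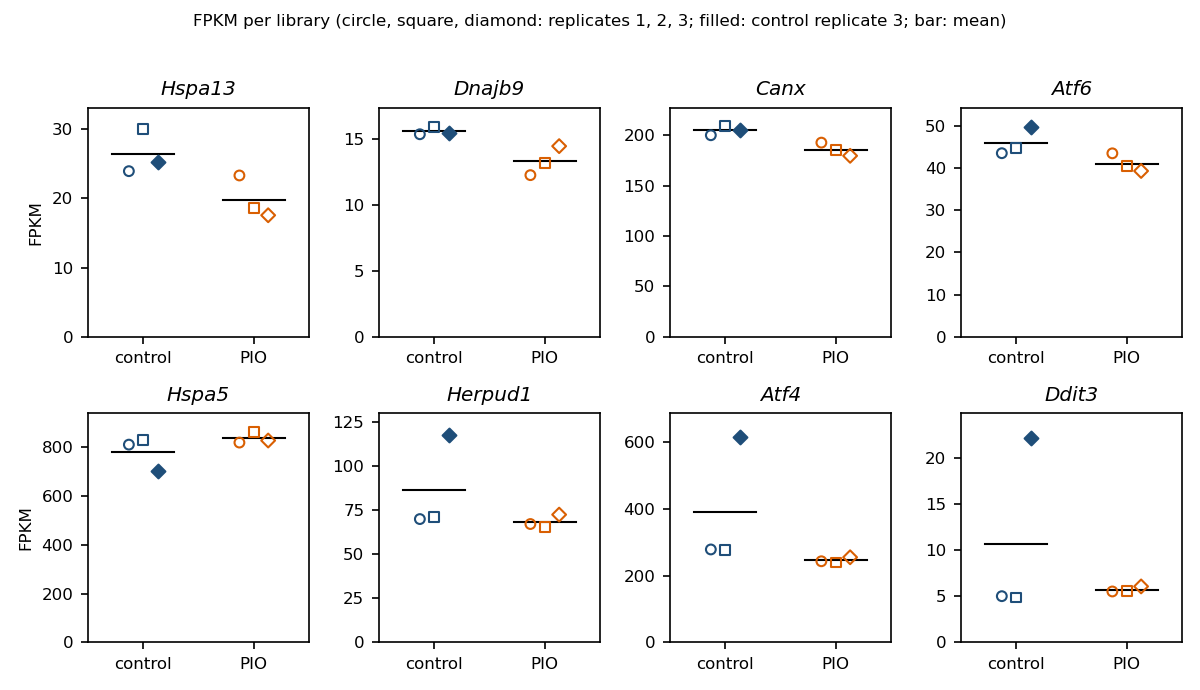
FPKM per library for 6 of the 32 genes and for Atf4 and Ddit3, with a bar at the mean of 3 libraries. For Hspa13, Dnajb9, Canx and Atf6 every PIO value lies below every control value; for Herpud1, Atf4 and Ddit3 control replicate 3 lies far above the other 5 libraries, and for Hspa5 it lies below them.

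The disulfide enzymes spanned the narrowest range of log2 fold changes among the 4 roles with several genes, from -0.064 to 0.043. Of the 5 genes 3 were above 0 and 2 below, with a median of 0.0031 that turned negative under quantile (-0.050), TPM (-0.026) and median-of-ratios scaling (-0.0035) and with limma-voom (-0.0034). P4hb was at 992, 1025 and 1025 FPKM in control and at 993, 1018 and 1038 FPKM after PIO. The values of both groups covered the same range, and the 95% interval of its log2 fold change ran from -0.072 to 0.078. Pdia3, which works with calnexin and calreticulin, had 631.0 ± 15.8 FPKM in control and 642 ± 24.1 FPKM after PIO (SD, n = 3). The groups overlapped for Pdia4 and Pdia6 as well, and neither passed (log2 fold changes -0.06 and 0.04, limma adjusted p = 0.494 and 0.608). For Pdia4 the overlap came from control replicate 3, and its log2 fold change was -0.080 without that library (limma adjusted p = 0.416). Ero1b encodes an oxidase that recharges protein disulfide isomerase. It was the scarcest of these 5 genes, at 11.2 ± 0.436 FPKM in control and 10.7 ± 0.128 FPKM after PIO (-0.06, limma adjusted p = 0.618). The related gene Ero1a, read with the other folding and redox enzymes below, was more abundant. It stood at 79.1 ± 6.69 FPKM in control and 75.7 ± 1.63 FPKM after PIO (SD, n = 3).

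Of the 10 degradation genes 8 were below 0 and 2 above, against 54% of all genes above 0. None was called, and the median log2 fold change was -0.057 (-0.063 to -0.086 under the other scalings). Herpud1 encodes an ER membrane protein that helps assemble the degradation complex. It was at 70.1, 71.2 and 118 FPKM in control and at 67.3, 65.5 and 72.6 FPKM after PIO. The high value was that of control replicate 3 alone, and the other 5 libraries overlapped. Its log2 fold change of -0.29 (SE 0.18, limma adjusted p = 0.515) was -0.047 without that library (limma adjusted p = 0.739), so 1 library set most of the value.

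The other degradation genes differed by less between the groups. The ligase gene Syvn1 was at 37.9 ± 1.31 and 38.5 ± 0.374 FPKM, and its partner Sel1l at 38.1 ± 1.33 and 35.9 ± 0.984 FPKM (SD, n = 3; limma adjusted p = 0.825 and 0.442). Os9, which encodes the lectin that brings misfolded glycoproteins to this ligase, was at 109 ± 0.733 and 108 ± 2.28 FPKM (limma adjusted p = 0.99). Of the mannosidase-like genes, Edem3 had the lowest log2 fold change, -0.14 (SE 0.07, limma adjusted p = 0.476), from 10.7, 11.3 and 9.62 FPKM in control to 9.94, 9.81 and 8.87 FPKM after PIO. Its value was -0.20 (limma adjusted p = 0.38) when control replicate 3 was left out. Edem1 and Edem2 were at -0.07 and -0.05. The derlin genes, whose products form part of the exit channel, were at 0.0020 for Derl1, -0.030 for Derl2 and -0.10 for Derl3. Derl3 is scarce here, at 4.13 ± 0.1 FPKM in control and 3.82 ± 0.203 FPKM after PIO.

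All 4 genes of the sensor group were below 0 under every scaling tried, with a median of -0.062. Over all genes 54% were above 0 in the limma fit. Atf6 was at 43.5, 44.7 and 49.8 FPKM in control and at 43.5, 40.4 and 39.3 FPKM after PIO. The groups touched without overlapping, 43.49 FPKM in control replicate 1 against 43.46 FPKM in PIO replicate 1. The log2 fold change was -0.16 (SE 0.06, limma adjusted p = 0.371), and -0.10 when control replicate 3, the highest library for this gene, was left out. Ern1 was at 19.2, 20.9 and 20.4 FPKM and then at 19.8, 19.3 and 18.9 FPKM (-0.06, limma adjusted p = 0.634). Eif2ak3 was at 18.0, 17.6 and 16.6 FPKM and then at 16.5, 16.7 and 16.5 FPKM (-0.07, limma adjusted p = 0.57). Neither gene separated the groups. For Eif2ak3 the overlap came from control replicate 3, and its log2 fold change was -0.099 without that library (limma adjusted p = 0.455). Xbp1 was at 198 ± 1.63 and 194 ± 6.16 FPKM (SD, n = 3; limma adjusted p = 0.701), and the values per gene do not tell its spliced from its unspliced form. Sec61b, the translocon subunit gene, was at 276, 273 and 255 FPKM in control and 278, 273 and 279 FPKM after PIO (0.05, limma adjusted p = 0.62).

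**Figure D3:**
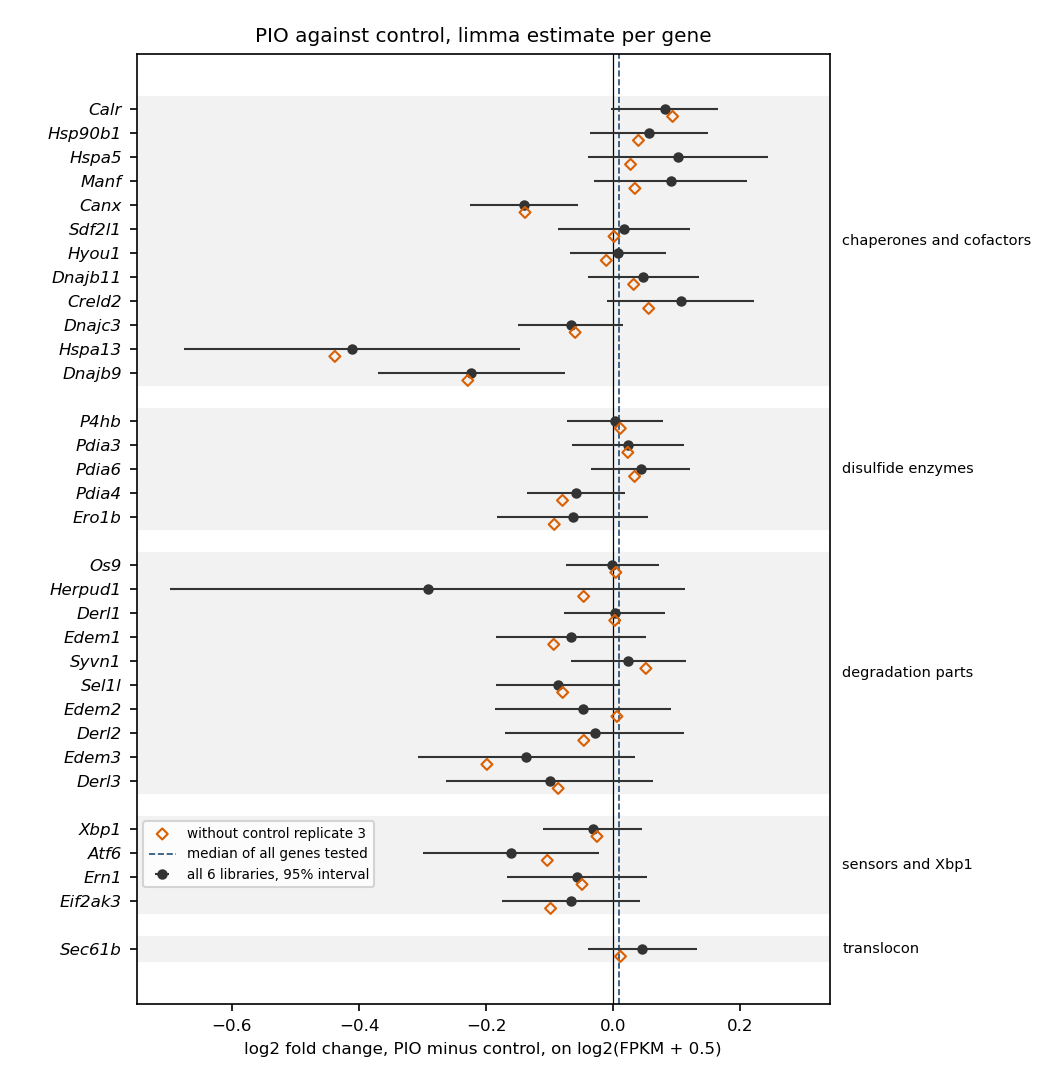
Log2 fold change of PIO over control for each of the 32 genes with its 95% interval from limma (black), and the value without control replicate 3 (orange diamonds). Of the 32 intervals 28 hold 0, those of Hspa13, Dnajb9, Canx and Atf6 lie below it, and the point of Herpud1 moves from -0.29 to -0.047.

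Counted by libraries, control and PIO did not overlap for 7 of the 32 genes (21.9%), against 18.5% of all genes. Of these, 5 were lower (Hspa13, Dnajb9, Dnajc3, Canx and Atf6; 8.09% of all genes) and 2 higher (Calr and Creld2; 10.5% of all genes). Gene length ran along with the fold changes in these genes as in the whole table. Of the 16 genes over the median length of 2567 bases, 5 were above 0 and the median was -0.061, and of the 16 shorter ones 9 were above 0 and the median was 0.020. Over all genes the same split gave 2525 of 5655 longer genes and 3093 of 4755 shorter genes above 0, with medians of -0.012 and 0.035. The median length was 1870 bases for chaperones, 2329 for disulfide enzymes, 4053 for degradation genes and 5983 for the sensor group. The median log2 fold changes of these roles in the limma fit fell in that order, so role and length ran together. The part of length in the results was not tested. Among the 5 lower genes Hspa13, Dnajb9 and Dnajc3 have 1610, 2068 and 1515 bases, and Canx and Atf6 have 5112 and 7298 bases. The 2 higher genes, Calr and Creld2, have 1865 and 1392 bases. Across the 32 genes, which share the 6 libraries, Spearman's rho of length with the log2 fold change was -0.47, and it was -0.27 across all 10410 genes. For mean FPKM with the log2 fold change, rho was 0.65 across the 32 genes and 0.089 across all genes. The more abundant of the 32 thus tended to the higher fold changes, unlike the whole table. The part of expression level was not tested either.

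Control replicate 3 was then set against control replicates 1 and 2. It held the highest or the lowest of the 6 values in 14 of these genes. Over all genes it was the highest in 22% and the lowest in 24.2%. The comparison sets 1 library against 2 of its own group, so there is no test, and a difference is called past 1.2-fold. Past that fold, 1 of the 32 genes was higher, Herpud1, against 5.83% of all genes. None was lower, against 4.35% of all genes. Herpud1 was 66.9% above the mean of the other 2 controls (3541 reads against 2148 and 2041), and it was also the 1 gene past 1.5-fold (1.05% of all genes).

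By role, medians in that library lay near 0. The median log2 difference was -0.049 for the chaperones, -0.028 for the disulfide enzymes, 0.018 for the degradation genes and 0.022 for the sensor group, beside 0.0010 over all genes. Relative to the mean of the other 2 controls, the lowest were Hspa5 at -14.4%, the degradation gene Edem3 at -12.7%, Manf at -11.05%, Creld2 at -9.98% and Sec61b at -6.96%. Of the 32 genes 14 lay above that mean (43.8%), against 50.3% of all genes. Control replicate 3 lay below all 5 other libraries for 8 of the 32 genes (Hspa5, Hsp90b1, Hyou1, Dnajb11, Manf, Creld2, Pdia6 and Sec61b), which is 25% against 24.2% of all genes. It lay above all 5 for 6 (Dnajc3, Herpud1, Edem2, Syvn1, Derl3 and Atf6), which is 18.8% against 22% of all genes. Atf6 was 12.8% and Edem2 11.8% above the other controls. These shares are near those of the whole table.

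The genes listed here as the PERK and ATF4 branch stood apart in the same library. The name is that of the list, and the activity of PERK was not measured. Of the 9 tested genes of this branch, 8 were past 1.2-fold higher in control replicate 3, against 5.83% of all genes. All 9 were above the other 5 libraries, against 22% of all genes. The list was chosen with earlier results of these data known, so these counts are a description. Atf4 was at 279, 277 and 617 FPKM in control and at 243, 239.6 and 255 FPKM after PIO. Ddit3, the gene of the stress factor CHOP, was at 5.02, 4.88 and 22.2 FPKM in control and at 5.53, 5.56 and 6.08 FPKM after PIO. Chac1, a glutathione-degrading enzyme gene downstream of ATF4, was at 6.89, 6.37 and 60.0 FPKM in control and at 5.65 to 6.74 FPKM after PIO, and control replicate 3 was at 9.05 times the other controls. Trib3 was 4.5 times, Atf3 4.92 times and the asparagine synthetase gene Asns 1.34 times the other controls, and Ppp1r15b, a phosphatase subunit gene, was the 1 under the fold (1.15 times). Herpud1 was high in the same library, while Eif2ak3 itself (-6.52%) and Hspa5 were lower there. The sources used here do not say what differed in that culture or library.

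**Figure D4:**
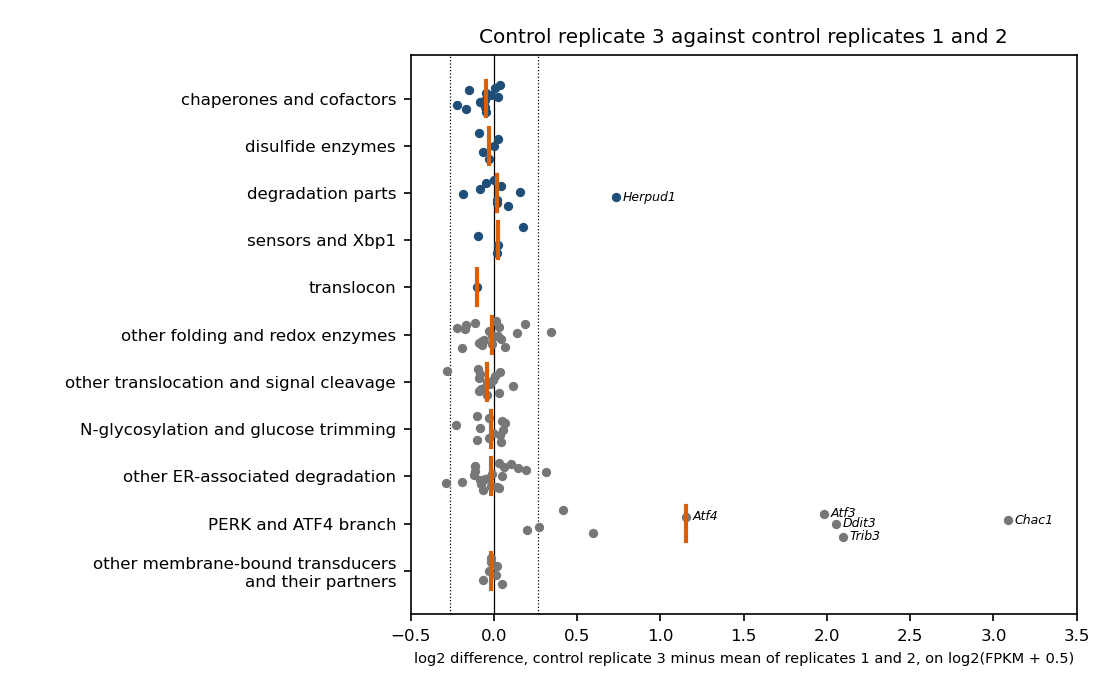
Log2 difference of control replicate 3 from the mean of control replicates 1 and 2, 1 point per gene, with the 32 genes by role (blue), the other pathway lists (grey), list medians (orange bars) and 1.2-fold in either direction (dotted). Herpud1 at 0.73 is the only one of the 32 genes past the fold, while the PERK and ATF4 branch has a median of 1.15.

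For PIO against control, the same branch had all 9 tested genes below 0 and a median log2 fold change of -0.43, which was -0.057 without control replicate 3. No gene of it was called (Atf4 -0.56, limma adjusted p = 0.438; Ddit3 -0.49, limma adjusted p = 0.681). Without that library the log2 fold change of Atf4 was -0.17 (limma adjusted p = 0.303), and that of Ddit3 was 0.19 (limma adjusted p = 0.407). Both comparisons use control replicate 3, so they are not independent.

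The rest of the pathway was read from 5 more lists, and no gene of them was called either. Of 21 tested folding and redox enzymes outside the 32 genes, 12 were above 0 and 9 below (median 0.019, and -0.010 under TPM scaling). The smallest p was that of the disulfide isomerase gene Pdia5 at 18.4 ± 1.14 and 21.5 ± 1.82 FPKM (SD, n = 3; 0.22, limma adjusted p = 0.34), followed by Sdf2 (0.16) and Tmx1 (-0.09). Of 15 genes of translocation and signal cleavage, 7 were above 0 and 8 below (median -0.0018). Their smallest p belonged to Spcs3, a signal peptidase subunit gene, at 99.2, 116 and 104 FPKM in control and 89.0, 88.7 and 77.0 FPKM after PIO. The groups did not overlap, and the log2 fold change was -0.32 (SE 0.07, limma adjusted p = 0.276). Serp1, an ER stress protein that protects membrane proteins, followed with 186 ± 6.71 and 168 ± 8.96 FPKM (-0.14, limma adjusted p = 0.34), and then Ssr3 (-0.11).

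Of 12 genes of N-glycosylation and glucose trimming, 4 were above 0 and 8 below (median -0.040). Dad1, a subunit gene of the oligosaccharyltransferase, had each PIO value above each control value (147 ± 6.38 and 164 ± 6.58 FPKM, SD, n = 3; 0.15, limma adjusted p = 0.308). Its catalytic subunit genes Stt3a and Stt3b were on the other side (-0.07 and -0.09, both limma adjusted p = 0.443). Of 21 other degradation genes, 11 were above 0 and 10 below (median 0.012, and -0.010 under quantile and -0.017 under TPM scaling), with the smallest p for Selenok (0.12), Rnf139 (-0.11) and Ube2j2 (0.09; limma adjusted p between 0.371 and 0.41). Of 7 tested membrane-bound transducers and partners, 4 were above 0 and 3 below, and under TPM scaling 1 was above. Creb3l2, the gene of an ATF6-like factor of the ER membrane, was at 22.8, 23.1 and 23.2 FPKM in control and 21.0, 19.3 and 19.4 FPKM after PIO. Its control values lay close together and above every PIO value, with a log2 fold change of -0.21 (SE 0.05, limma adjusted p = 0.28). Creb3 and Mbtps2 followed (limma adjusted p = 0.443 and 0.752).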

How the data were processed

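RNA was taken up in TRIzol and made into stranded mRNA libraries (Illumina kit), per the labels' protocols. The authors deposited 1 table of FPKM. The submitters' processing notes list Cufflinks, HTSeq, DESeq, HISAT2 2.2.1.0, Trimmomatic 0.36, SAMtools 1.3.1, BWA 0.7.5a and FastQC 0.11.5. They name the human build GRCh38, although the table names rat genes. Roles, strand settings and the build behind the values are not given in the sources used here, so reads of overlapping genes or of close copies may be misassigned. Promoters come from RefSeq (GRCr8).

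Library totals were inferred from the FPKM. The total chosen for 1 library gave a whole gene length in 286 of 300 low genes tried, and ratios of FPKM gave the others. Whole reads and gene lengths were then recovered from the FPKM (tolerance 0.0001 of a read) for all 15429 genes above 0. Tests covered genes averaging 0.5 FPKM or more, on log2(FPKM + 0.5), which understates changes of low genes, with limma 3.58.1 in R 4.3.3 (group as the only term, variance trend, two-sided, Benjamini-Hochberg at 0.05). An exact permutation test of 3 against 3 cannot go below p = 0.1 and was not used. The code was tested on simulated reads. Other steps used Python 3.11.15, numpy 2.4.6, pandas 2.3.3 and matplotlib 3.10.9. Alternatives were other pseudocounts, filters, scalings and variance models, sample weights, a replicate block, limma-voom on recovered reads and each library left out. The 32 genes and the lists were chosen with earlier results of these data known. The rule for named genes takes all 32, up to 3 genes of each other list with the smallest p, Atf4 and Ddit3, and Cpt1a and Hmox1. Chac1, Trib3, Atf3 and Ero1a were named after their values were seen. In 4 listed genes an older symbol was matched by GeneID.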

Additional observations from a re-analysis of the deposited data

How the results depend on the processing

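No gene of the 32 was called under any of the 19 alternatives (lowest limma adjusted p = 0.138). The count over all genes, 4, was 1 without a filter, 2 without a variance trend, and 7 with a robust variance fit and with limma-voom on the recovered reads. It was 2 to 4 with 1 library left out, the 2 being without control replicate 1. With the replicate number as a block it was 3, and no gene of the 32 and none of the other lists was called. Deviations of same-numbered libraries from their group means correlated at -0.068, 0.028 and 0.078, beside -0.094 to 0.082 for libraries of different numbers. No pairing by number was seen, but 3 libraries per group cannot exclude it. Of 607 values of single genes (Derl3 is under a minimum mean of 5 FPKM), 580 kept their sign, and the 27 others belonged to 10 genes with log2 fold changes near 0. Under quantile normalization the sign turned for Hsp90b1 (-0.00046), Hyou1 (-0.0038), Sdf2l1 (-0.0069), P4hb (-0.050), Pdia3 (-0.050) and Derl1 (-0.0091). Under TPM scaling, which moved the median of all genes to -0.019, it turned for Hyou1 (-0.022), Sdf2l1 (-0.013), P4hb (-0.026), Pdia3 (-0.0056), Syvn1 (-0.0055) and Derl1 (-0.027). Median-of-ratios scaling turned P4hb (-0.0035) and Derl1 (-0.0045), and limma-voom did so too (-0.0034 and -0.0048). The median of the disulfide enzymes was -0.050 under quantile normalization for PIO and 0.0072 for control replicate 3. The cause was not tested. With 1 library left out, values ran from -0.011 to 0.028 for Hyou1, -0.018 to 0.055 for Sdf2l1, -0.012 to 0.020 for P4hb, -0.082 to 0.0056 for Edem2, -0.019 to 0.0086 for Os9, -0.015 to 0.019 for Derl1 and -0.067 to 0.025 for Derl2. The median of the degradation genes in control replicate 3 was 0.016 and 0.051 with 1 of the other 2 controls left out. Depth limits Derl3 most, with 276 reads in its lowest library.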
